A study of Mus musculus with 4 samples.

Results

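The inhibitor of DNA binding genes *Id1*, *Id2*, *Id3* and *Id4* and 6 genes of bone morphogenetic protein (BMP) signaling were examined in Müller glial cells sorted from control and *Rax* iCKO mice. The 6 genes were the receptors *Bmpr1a*, *Bmpr1b* and *Bmpr2*, the signal transducers *Smad1* and *Smad5*, and the pseudoreceptor *Bambi*. The 10 genes were chosen by symbol from the 24322 symbols of the expression files, and all 10 were among the 12363 genes with a mean of at least 1 FPKM, fragments scaled to transcript length and to the mapped reads of the library. *Id1*, *Id2*, *Id3* and *Bambi* had lower values in each *Rax* iCKO library than in either control library, at 0.593 to 0.750 times the control mean, whereas the receptors, both Smads and *Id4* overlapped between the groups. None of the 10 passed the adjusted test across all genes.

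BMP ligands bind complexes of type I and type II receptor serine/threonine kinases, and the activated type I receptor phosphorylates Smad1 and Smad5. These Smads enter the nucleus with Smad4 and switch on targets among which the *Id* genes are the best known. Id proteins have a helix-loop-helix domain but no DNA-binding region, so they hold E proteins in complexes that do not bind DNA. In the developing retina, Id proteins are known for keeping progenitors from differentiating, and *Id1* and *Id3* are expressed in Müller glial cells.

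mTFP-positive cells were sorted by fluorescence from the retinas of 4 mice, whose tamoxifen was injected at P4 and whose tissue was taken at P14. The control mice (n = 2, mouse numbers 7984 and 3911) were Raxflox/WT and the *Rax* iCKO mice (n = 2, mouse numbers 7983 and 3914) were Raxflox/flox, and all 4 carried Rlbp1-CreERT2 and R26-CAG-LoxP-mTFP1, with 129S6 given as their strain background. The controls therefore also received tamoxifen, expressed CreERT2 and could lose their floxed *Rax* allele. By genotype, control cells kept 1 wild-type allele and *Rax* iCKO cells could lose both alleles. The share of sorted cells that lost them was not measured here. CreERT2 was driven by a promoter fragment of *Rlbp1*, a gene of Müller glial cells that the retinal pigment epithelium also expresses. The mouse numbers fall in 2 runs, 7983 with 7984 and 3911 with 3914, and the labels do not say what a run shares.

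*Rax*, the targeted gene, was at 189 and 181 FPKM in the control libraries and at 111 and 98.4 FPKM in the *Rax* iCKO libraries, a ratio of 0.566 in the direction of the labelled genotypes. The values do not show which part of the transcript remained, since each gene has 1 value. All 20 Müller glial markers were detected in every library, and their FPKM summed to 25002 and 21036 in the controls and to 16550 and 17227 in the *Rax* iCKO libraries. Without overlap between the groups, 10 of 13 rod markers were lower and 5 of 12 bipolar cell markers were higher, against 14.1% and 15.4% of all genes tested. Reads per library were estimated at 9240000 to 12660000. Fewer cells of a type and less RNA per cell cannot be told apart in these sorted pools.

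The sequences just before the start sites of *Id2*, *Id3* and *Id4* are shown because the *Id* genes are the best known targets of the pathway. The reference sequences used held no window of *Id1* or *Bambi*. They are 250 bases of RefSeq sequence in GRCm38.p6, read 5′ to 3′ on the gene's strand and ending at the base before the annotated start. Capitals mark GGCGCC, a GC-rich element known to be bound by Smad1 and Smad5. The windows lie at chr12:25096093-25096342 on the minus strand for *Id2*, chr4:136143572-136143821 on the plus strand for *Id3*, and chr13:48260866-48261115 on the plus strand for *Id4*.
Id2: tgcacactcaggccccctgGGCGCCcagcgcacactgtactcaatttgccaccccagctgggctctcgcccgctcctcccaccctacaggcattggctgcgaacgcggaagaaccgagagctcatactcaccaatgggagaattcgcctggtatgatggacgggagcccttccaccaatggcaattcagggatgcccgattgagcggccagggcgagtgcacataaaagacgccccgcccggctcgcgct
Id3: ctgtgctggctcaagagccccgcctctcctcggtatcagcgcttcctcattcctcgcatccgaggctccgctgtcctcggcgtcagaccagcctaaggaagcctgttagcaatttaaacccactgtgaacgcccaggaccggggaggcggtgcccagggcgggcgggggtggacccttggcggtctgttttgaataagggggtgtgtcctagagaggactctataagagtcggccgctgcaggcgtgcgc
Id4: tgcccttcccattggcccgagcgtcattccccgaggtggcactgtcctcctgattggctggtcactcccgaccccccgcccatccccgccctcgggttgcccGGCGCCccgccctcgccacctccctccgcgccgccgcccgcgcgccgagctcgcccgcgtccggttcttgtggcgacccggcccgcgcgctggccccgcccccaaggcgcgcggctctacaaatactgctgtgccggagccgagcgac

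G and C made up 62.8% of the *Id2* window, 62.8% of the *Id3* window and 75.6% of the *Id4* window, against a median of 52.4% over all 32851 windows. GGCGCC began at position -231 relative to the start of *Id2* and at -148 relative to that of *Id4*, and these letters were not in the *Id3* window. Of 12 windows, some overlapping, that belonged to 8 of the 10 genes, 5 held GGCGCC, 1 each of *Id2*, *Id4*, *Bmpr2*, *Bmpr1a* and *Smad5*. Over all windows 9.59% held it. GGCGCC is made of G and C alone, and the 5 windows that held it had 62.8% to 78.8% of these bases. Windows of like G and C content were not compared. TAATT, searched as the site to which the study related Rax, or AATTA on the other strand, was in 1 window each of *Bmpr1b*, *Smad1* and *Smad5* and in 8223 of all windows (25%). GTCTAGAC, the palindromic Smad element, was in none of the 12 and in 0.167% of all. GGCGCC and GTCTAGAC read the same on both strands, and none of the 3 motifs contains another. These matches describe the letters in the windows and not binding.

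*Id1* (chr2:152736251-152737410, plus strand) was at 131.4 and 139.8 FPKM in the control libraries and at 92.9 and 99.3 FPKM in the *Rax* iCKO libraries. The groups did not overlap, and the gap between them was wider than the spread within either. The means were 136 ± 5.96 and 96.1 ± 4.51 FPKM (SD, n = 2 each), a log2 fold change of -0.49 (SE 0.21, 95% interval -0.99 to 0.01) on the log2(FPKM + 1) scale. *Id1* was lower by the same log2 difference, -0.49, in each run of mouse numbers.

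*Id2* (chr12:25093799-25096092, minus strand), whose product restrains neuronal and lymphoid differentiation, was at 355 and 321 FPKM in the controls and at 251 and 222 FPKM in the *Rax* iCKO libraries. Both *Rax* iCKO values lay under both control values. The means were 338 ± 23.5 and 237 ± 20.8 FPKM (SD, n = 2 each), with a log2 fold change of -0.51 (SE 0.24, 95% interval -1.10 to 0.08). Within the runs the differences were -0.49 and -0.53.

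*Id3* (chr4:136143822-136145392, plus strand) was the most abundant of the 10 genes, at 691 and 616 FPKM in the controls and 469.8 and 510.4 FPKM in the *Rax* iCKO libraries. The groups again did not overlap. The log2 fold change was -0.41 (SE 0.28, 95% interval -1.09 to 0.26), and the difference was -0.56 in the run of 7983 and 7984 and -0.27 in the run of 3911 and 3914. Only 98 of the 12363 genes had a higher control mean than *Id3*, which put *Id3* above 99.2% of them, *Id2* above 97.9% and *Id1* above 93.5%.

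*Id4* (chr13:48261116-48266028, plus strand) was far less abundant, at 21.8 and 12.7 FPKM in the controls and at 17.1 and 9.93 FPKM in the *Rax* iCKO libraries. The higher *Rax* iCKO value lay between the control values, so the groups overlapped. The runs differed by more than the groups, since the 2 mice of the run of 7983 and 7984 had a mean 1.72 times that of the other run. Within each run *Id4* was lower in the *Rax* iCKO mouse by -0.33, and the fitted log2 fold change was -0.33 (SE 0.36, 95% interval -1.22 to 0.56). The noncoding gene *A330033J07Rik* lies over *Id4* on the opposite strand and was at 0.36 to 0.70 FPKM. Without a stated strand setting, reads of the pair cannot be told apart.

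**Figure D1:**
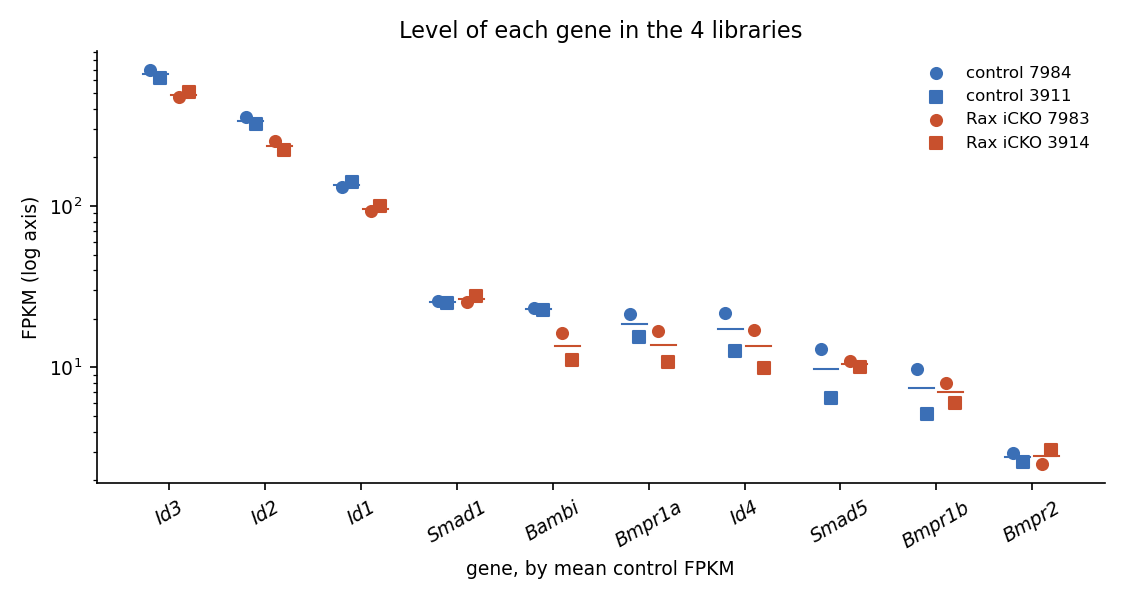
FPKM of the 10 genes in each library, with 1 point per mouse, on a logarithmic axis. The *Rax* iCKO points of *Id1*, *Id2*, *Id3* and *Bambi* sit under both control points, while the points of the other genes interleave.

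Summed over the 4 genes, *Id* FPKM came to 1199 and 1090.3 in the controls and 831 and 842 in the *Rax* iCKO libraries. The *Rax* iCKO sum was 0.731 times the control sum (1145 ± 77.1 against 837 ± 7.31 FPKM, SD, n = 2 each), with p = 0.333 in a two-sided exact permutation test, the smallest p that 2 against 2 allows. The makeup of the sum was alike in the 4 libraries. *Id3* held 56.5% to 60.6% of it, *Id2* 26.4% to 30.2%, *Id1* 11.0% to 12.8% and *Id4* 1.16% to 2.06%.

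The E proteins that Id proteins bind are encoded by *Tcf3*, *Tcf4* and *Tcf12*. Their FPKM summed to 72.8 and 68.0 in the controls and to 62.9 and 70.0 in the *Rax* iCKO libraries, which overlapped. The ratio of *Id* FPKM to E-protein FPKM was 16.5 and 16.0 in the controls and 13.2 and 12.03 in the *Rax* iCKO libraries, so both *Rax* iCKO ratios were lower (p = 0.333, exact permutation test). *Tcf3* was at 29.7 and 21.6 against 21.9 and 21.2 FPKM, and *Tcf4* was at 32.2 and 35.2 against 30.7 and 39.5 FPKM. *Tcf12*, at 10.9 and 11.2 against 10.3 and 9.30 FPKM, was the E-protein gene whose groups did not overlap, with a log2 fold change of -0.16.

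**Figure D2:**
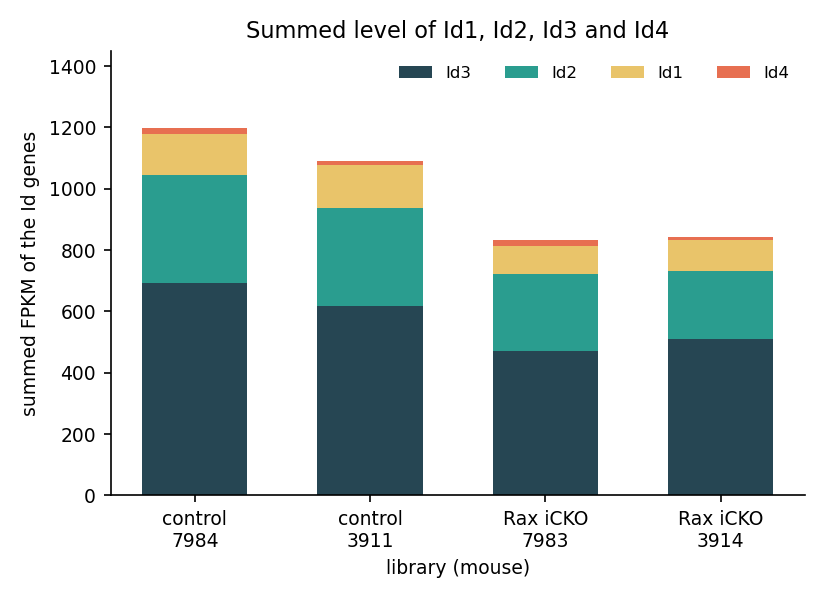
Stacked FPKM of the 4 *Id* genes in each library. The sum was 1199 and 1090.3 FPKM in the controls and 831 and 842 FPKM in the *Rax* iCKO libraries, with *Id3* the largest share in each.

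Of 8 helix-loop-helix genes listed as partners or counterparts of Id proteins, 7 were tested, 0 were called, 4 were lower without overlap and 1 was higher, against 14.1% lower and 15.4% higher of all genes and 22.3% lower of those with at least 100 FPKM. The Notch targets *Hes1* and *Hes5*, repressors that keep progenitor and glial states, were among the lower 4. *Hes1* was at 137 and 131 against 106 and 82.4 FPKM, a log2 fold change of -0.51. *Hes5* was at 165 and 173 against 147 and 101 FPKM, a log2 fold change of -0.47. Without mouse 3914 these were -0.33 for *Hes1* and -0.20 for *Hes5*, and without mouse 7983 *Hes5* was at -0.73. *Neurog2*, a proneural factor, was at 7.47 and 6.78 against 5.83 and 4.79 FPKM, a log2 fold change of -0.37. The median over the 7 was -0.22, and over all genes tested it was -0.00.

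*Bmpr1a* (chr14:34411061-34503336, minus strand), a type I receptor that binds BMP2 and BMP4 with high affinity, was at 21.5 and 15.5 FPKM in the controls and at 16.7 and 10.8 FPKM in the *Rax* iCKO libraries. The values overlapped between the groups by the position of a single library, since 16.7 lay above the lower control. The means were 18.5 ± 4.25 and 13.8 ± 4.19 FPKM (SD, n = 2 each), with a log2 fold change of -0.41 (SE 0.30, 95% interval -1.13 to 0.31). Within the runs the differences were -0.34 and -0.48. The fold change was -0.12 without mouse 3914, -0.19 without mouse 7984, -0.63 without mouse 3911 and -0.70 without mouse 7983.

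*Bmpr1b* (chr3:141837135-142169585, minus strand), the other type I receptor of the 10, was at 9.75 and 5.13 against 7.98 and 6.06 FPKM. Both *Rax* iCKO values lay between the control values. The log2 fold change was -0.03 (SE 0.34, 95% interval -0.87 to 0.81), and the runs differed in sign, at -0.26 and 0.20. *Bmpr1a* exceeded *Bmpr1b* in every library, by 2.2 and 3.01 times in the controls and by 2.098 and 1.78 times in the *Rax* iCKO libraries.

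*Bmpr2* (chr1:59764279-59878081, plus strand), the type II receptor that starts the phosphorylation, had the lowest level of the 10, at 2.96 and 2.59 against 2.54 and 3.09 FPKM. The *Rax* iCKO values enclosed the control values. Its log2 fold change was 0.01 (SE 0.27, 95% interval -0.65 to 0.68), an interval that includes differences as large as that of *Id1*. None of the 3 receptor genes can therefore be said to have kept its level.

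*Bambi* (chr18:3507011-3516404, plus strand), which encodes a receptor-like protein without a kinase domain that dampens BMP and TGF-β signaling, was at 23.4 and 22.6 FPKM in the controls and at 16.2 and 11.0 FPKM in the *Rax* iCKO libraries. It had the lowest ratio of the 10, 0.593, and its *Rax* iCKO values were farther apart than its control values. The means were 23.0 ± 0.565 and 13.6 ± 3.67 FPKM (SD, n = 2 each), with a log2 fold change of -0.74 (SE 0.25, 95% interval -1.35 to -0.12). The differences within the runs were -0.50 and -0.97. The pseudogene *Bambi-ps1*, with which *Bambi* could share reads, was at 0.619 and 3.08 FPKM in the controls and at 0.731 and 6.35 FPKM in the *Rax* iCKO libraries. In mouse 3914, which had the lowest *Bambi* value, *Bambi-ps1* was highest, and the part of shared reads was not tested.

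*Smad1* (chr8:79338395-79399428, minus strand) was the steadiest of the 10, at 25.8 and 25.1 against 25.5 and 27.8 FPKM. Its log2 fold change was 0.06 (SE 0.20, 95% interval -0.43 to 0.55). *Smad5* (chr13:56703010-56742378, plus strand), which transduces the same receptors' signal, was at 12.9 and 6.51 against 11.0 and 10.1 FPKM, with both *Rax* iCKO values between the control values. Its log2 fold change was 0.17 (SE 0.34, 95% interval -0.66 to 1.0003), and the runs gave -0.22 and 0.56. *Smad1* exceeded *Smad5* in every library, by 1.999 to 3.86 times.

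**Figure D3:**
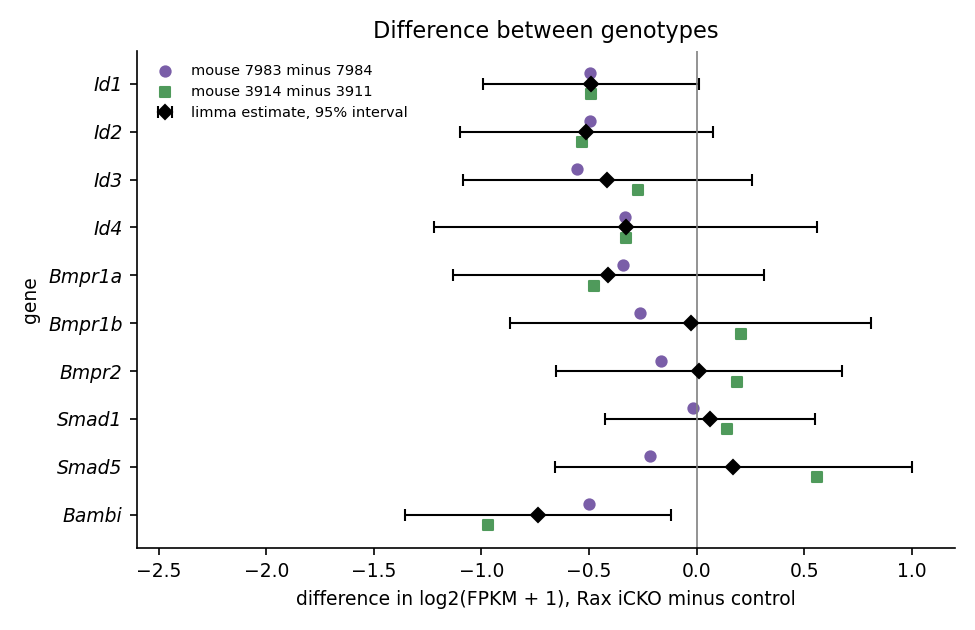
Log2 fold change of each gene (*Rax* iCKO against control, log2(FPKM + 1) scale) as a point with its 95% interval from limma, and the difference within each run of mouse numbers as separate marks. The interval of *Bambi*, -1.35 to -0.12, is the one that lies wholly under 0, and the marks of *Bmpr1b*, *Bmpr2*, *Smad1* and *Smad5* fall on both sides of 0.

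Across the 10 genes, 4 were lower without overlap, that is with each *Rax* iCKO value under each control value, and 0 were higher, whereas over all 12363 genes 14.1% were lower without overlap and 15.4% were higher. Among the 1064 genes with a mean of at least 100 FPKM, to which *Id1*, *Id2* and *Id3* belong, 22.3% were lower without overlap and 5.08% were higher, and the median log2 fold change of these abundant genes was -0.18. The differences of *Id1*, *Id2* and *Id3*, from -0.41 to -0.51, thus stood in a range of expression where lower values were more common than higher ones. In 6 of the 10 genes, which were the 4 *Id* genes, *Bmpr1a* and *Bambi*, the *Rax* iCKO mouse was lower in both runs, against 31.7% of all genes. The median log2 fold change was -0.37 over the 10, -0.45 over the 4 *Id* genes and -0.01 over the other 6. The median of the 10 rested on single libraries, since it was -0.073 without mouse 7984 and -0.10 without mouse 3914.

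In the limma test over all genes, 0 of the 10 passed an adjusted p of 0.05 in either direction, where 0.0243% of all genes did, 0.00809% higher and 0.0162% lower, and the adjusted p was 0.9999 for each. At an unadjusted p under 0.05, 1 of the 10 was lower and 0 were higher, against 1.6% of all genes lower, 1.26% higher and 2.86% in all. This gene was *Bambi*, with an unadjusted p of 0.0265 in limma. Its limma p was 0.0680 without mouse 7984, 0.0584 without mouse 3911 and 0.222 without mouse 3914, and without mouse 3914 its log2 fold change was -0.48. Of the 10, 0 had a ratio of means under 0.5 or over 2, which 1.02% and 0.841% of all genes had. The next lowest unadjusted limma p were 0.0535 for *Id1*, 0.0769 for *Id2* and 0.183 for *Id3*. By the two-sided exact permutation test, p was 0.333 for each of *Id1*, *Id2*, *Id3* and *Bambi*, the smallest that 2 against 2 can give. The estimated reads behind the lowest library of a gene ran from 244 for *Bmpr1b* to 4765 for *Id3*. Taken as counts of independent reads, these estimates give an SD of 0.0924 on the log2 scale for *Bmpr1b* and less for the others, where the standard errors of the fold changes were 0.20 to 0.36, and duplicated reads would add to it.

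The order of the levels in FPKM, a value per length, was nearly the same in both groups. In the controls it ran *Id3*, *Id2*, *Id1*, *Smad1*, *Bambi*, *Bmpr1a*, *Id4*, *Smad5*, *Bmpr1b* and *Bmpr2*, and in the *Rax* iCKO libraries *Bambi* and *Bmpr1a* changed places. Neighbours whose libraries overlapped in the controls were *Bmpr1a* with *Id4*, *Id4* with *Smad5*, and *Smad5* with *Bmpr1b*. In the *Rax* iCKO libraries they were *Bmpr1a* with *Bambi*, *Bambi* with *Id4*, and *Id4* with *Smad5*.

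Levels also differed between the runs of mouse numbers. *Id4*, *Bmpr1a*, *Bmpr1b* and *Smad5* were higher in both mice of the run of 7983 and 7984 than in both mice of the other run, at 1.72, 1.45, 1.58 and 1.44 times, and 26.8% of all genes were. In the other direction this held for 29.1% of all genes. *Id1*, *Id2*, *Id3*, *Bambi*, *Smad1* and *Bmpr2* did not divide by run in this way. What the runs share was not tested.

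The remaining genes of the pathway were taken from 5 lists of 70 genes, of which 34 were tested, 31 were under 1 FPKM in every library and 6 of the 70 were listed at 0 throughout. Of the 34, 0 passed either the adjusted or the unadjusted limma test in either direction, 1 was lower without overlap and 5 were higher, against 14.1% and 15.4% of all genes, and their median log2 fold change was -0.01. Their fold changes divided evenly, with 18 under 0 and 16 above.

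Of 14 ligand genes, 3 were tested. *Bmp2* was at no more than 0.064 FPKM, and *Bmp4*, a ligand of the dorsal retina, was at no more than 0.118 FPKM. *Bmp7* was at 11.2 and 13.03 FPKM in the controls and at 16.7 and 14.7 FPKM in the *Rax* iCKO libraries, higher without overlap and with a log2 fold change of 0.35. *Bmp3*, whose product antagonizes other BMPs, was the most abundant ligand gene, at 60.3 and 39.6 against 58.9 and 31.2 FPKM. It followed the runs and overlapped between the groups.

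The receptor list held 5 tested genes, with a median of 0.08. The type I receptor *Acvr1* was at 5.96 and 3.09 against 6.63 and 3.96 FPKM. The type II receptor *Acvr2a* was at 4.62 and 5.99 against 5.41 and 5.89 FPKM, and *Acvr2b* was at 10.9 and 6.25 against 11.2 and 5.94 FPKM. *Neo1*, a receptor of BMP coreceptors of the RGM family, was the highest of the list at 40.4 and 21.7 against 36.1 and 23.7 FPKM. All 4 overlapped between the groups. The coreceptor *Rgmb* was the 1 of the 5 tested that was higher without overlap, where 15.4% of all genes were.

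Among 11 tested Smads and Smad regulators the median was 0.06, and 2 were higher without overlap, where 15.4% of all genes were. The shared partner *Smad4* was at 25.6 and 3.60 FPKM in the controls and at 23.4 and 4.41 FPKM in the *Rax* iCKO libraries, so it differed by run and hardly by genotype. The inhibitory *Smad6*, itself a BMP target, was at 5.92 and 2.53 against 3.25 and 2.83 FPKM, and *Smad7* and *Smad9* were under the level tested. *Smurf1*, a ubiquitin ligase for Smad1 and Smad5, was at 12.3 and 4.995 against 12.03 and 6.51 FPKM. *Tob1*, a repressor of BMP Smads and the most abundant of this list, was at 38.8 and 34.8 against 41.4 and 30.5 FPKM. *Ldlrad4*, which holds back receptor Smads of the TGF-β branch, was at 10.4 and 9.63 against 13.5 and 15.3 FPKM, higher without overlap and with a log2 fold change of 0.48.

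The list of extracellular antagonists, which also holds the tolloid proteases *Bmp1*, *Tll1* and *Tll2* that release BMPs from chordin, had 10 tested genes and a median of -0.22. *Sostdc1* was the 1 that was lower without overlap, where 14.1% of all genes were. *Nbl1*, the most abundant of them, was at 154.7 and 84.8 against 108 and 84.8 FPKM. Of the 14 other BMP targets, 5 were tested, with a median of -0.02. *Hamp*, the hepcidin gene and a classic BMP target of the liver, was at 0 and 1.12 against 1.65 and 1.67 FPKM, and *Tbx2*, a target in the dorsal eye, was at 81.1 and 24.4 against 86.8 and 25.7 FPKM. Of these 5 targets, 0 were lower without overlap, where 14.1% of all genes were, and *Hamp* was the 1 that was higher, where 15.4% were.

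**Figure D4:**
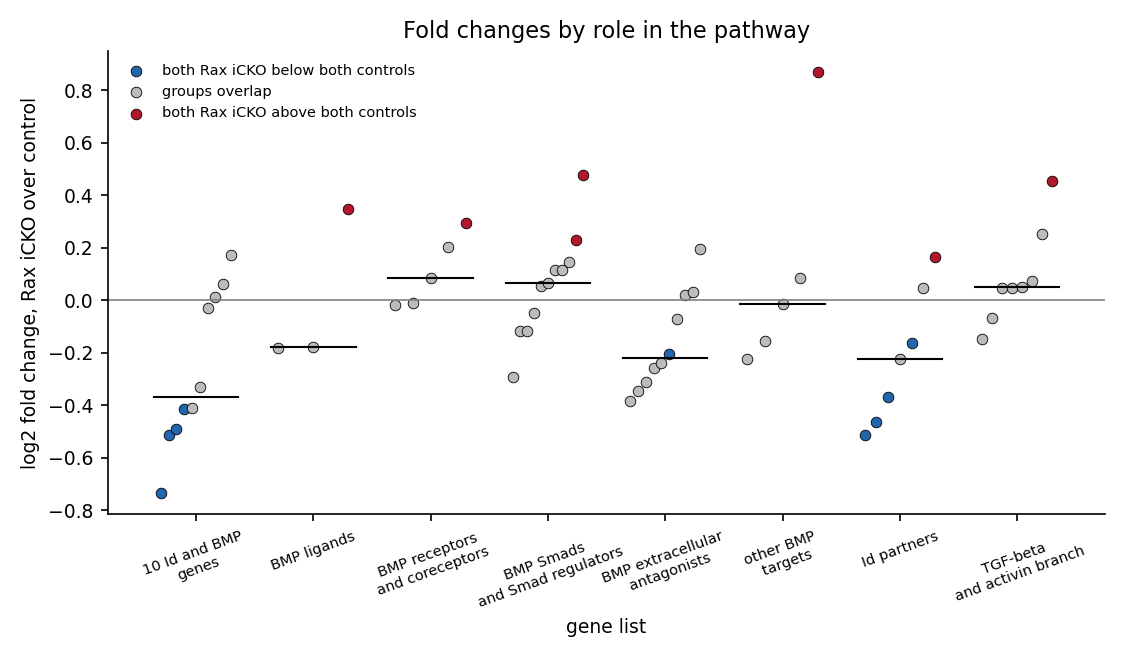
Log2 fold change (*Rax* iCKO against control, log2(FPKM + 1) scale) of the tested genes of each list, with 1 point per gene, the median as a bar, and colour for groups that do not overlap. The median of the 10 genes is -0.37, and the medians of the 5 pathway lists lie between -0.22 and 0.08.

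In the TGF-β and activin branch, which uses other Smads, 8 of 12 genes were tested, the median was 0.05, which turned to -0.054 without mouse 3911 and to -0.057 without mouse 7983, and 1 was higher without overlap, against 15.4% of all genes. It was *Smad3*, a TGF-β transducer, at 15.8 and 9.31 against 18.2 and 16.0 FPKM with a log2 fold change of 0.45 that was 0.10 without mouse 3911 and 0.81 without mouse 7984. *Tgfb2*, the most abundant gene of this list, was at 130.4 and 113 against 139 and 114 FPKM.

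Müller glial markers, rod markers and immediate early genes moved with *Id1*, *Id2*, *Id3* and *Bambi*. Of the 20 Müller glial markers, 9 were lower without overlap and 0 were higher, against 14.1% and 15.4% of all genes and 22.3% and 5.08% of those with at least 100 FPKM, and their median log2 fold change was -0.36. Of 17 tested immediate early genes, which respond to stimulation and to cell dissociation, 13 were lower without overlap, with a median of -0.46. Of the 13 rod markers, 10 were lower without overlap, with a median of -0.57. The median of the 12 bipolar markers was 0.27. When each library was centred on its Müller glial markers, a scaling chosen after the data were seen that moved the median of all genes from -0.00 to 0.37, the log2 fold changes were -0.12 for *Id1*, -0.14 for *Id2*, -0.04 for *Id3* and -0.36 for *Bambi*. *Id4* then turned to 0.05, and 0 of the 10 genes were lower without overlap, where 1.29% of all genes were lower and 41.5% higher under this centring. The part of the markers' difference in that of the *Id* genes was not tested further.

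Other cell types that express *Id* genes or *Bambi* were checked by their markers. Of the 12 endothelial markers, 7 were under 1 FPKM everywhere, *Cdh5* was at no more than 0.10 FPKM and *Pecam1* at 0.20 to 0.64 FPKM, and the 4 tested had a median of -0.08. Other genes of this list were present, with *Kdr*, which Müller glial cells are also known to express, at 228 to 464 FPKM, *Flt1* at 13.2 to 25.1 FPKM and *Egfl7* at 4.89 to 8.54 FPKM. The list summed to 501.9 and 258 FPKM in the controls and to 416 and 272 FPKM in the *Rax* iCKO libraries, which overlapped. Microglial markers summed to 89.5 and 98.3 FPKM in the controls and to 144 and 26.7 FPKM in the *Rax* iCKO libraries, so they differed more between the *Rax* iCKO mice than between the groups. Of the astrocyte markers, *Gjb6* was listed at 0 in all 4 libraries and *Pax2* at 0 in 3 of them, whereas *Agt* was at 72.7 to 100.9 FPKM and *Gfap* at 4.38 to 8.94 FPKM. Of the 5 tested, 2 were lower without overlap, where 14.1% of all genes were, among them *Aldh1l1* at 44.2 and 30.5 against 22.4 and 20.9 FPKM, a log2 fold change of -0.74. The list summed to 158 and 129 against 106 and 115 FPKM, so both *Rax* iCKO sums were lower, and its part in the values of the *Id* genes and *Bambi* was not tested. Pigment epithelium markers summed to 7.67 and 9.31 FPKM in the controls and to 10.5 and 12.9 FPKM in the *Rax* iCKO libraries. Without *Ttr* the sums were 6.67 and 5.19 against 7.99 and 5.498 FPKM and overlapped. Of these 12 markers, 9 were under 1 FPKM everywhere, *Mlana* was listed at 0 and *Rpe65* was at 0 and 0.131 against 0.774 and 0 FPKM. The median of the 2 tested was 0.43, with *Ttr* at 1.0007 and 4.12 against 2.49 and 7.37 FPKM, and *Tyr* and *Tyrp1*, under the level tested, were higher without overlap while *Best1*, also under it, was lower. The part of this tissue was not tested either. The median of 2 tested pericyte markers was -0.02.

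**Figure D5:**
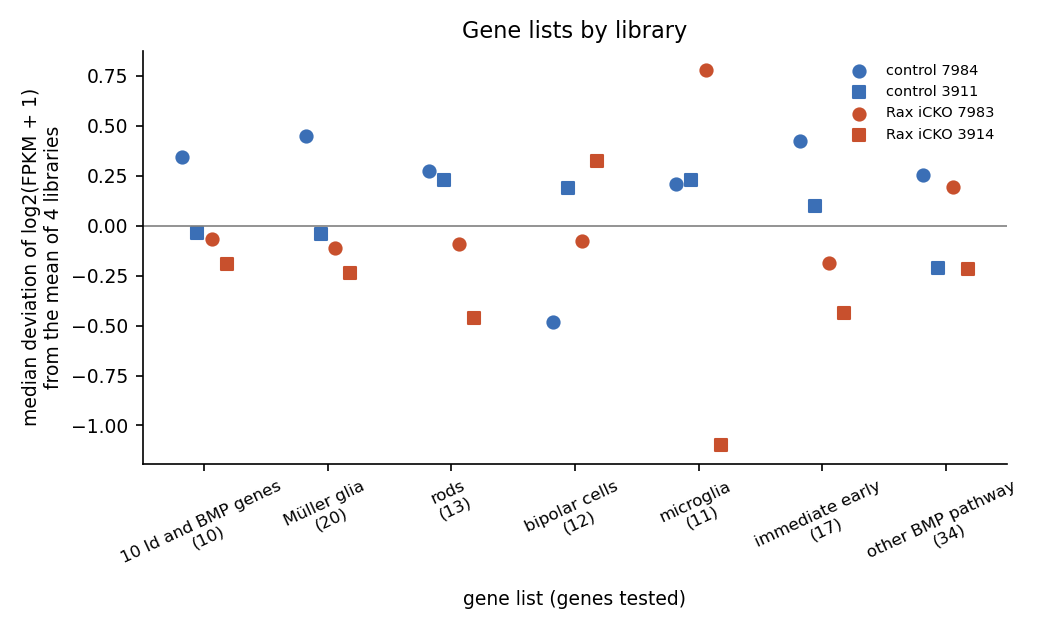
Median deviation, in log2(FPKM + 1), of the genes of each list from their own mean over the 4 libraries, with 1 point per mouse. The median of the 10 genes was 0.34 and -0.03 in the controls and -0.06 and -0.19 in the *Rax* iCKO libraries, and that of the Müller glial markers was 0.45 and -0.04 against -0.11 and -0.24.

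*Socs3*, the gene the study followed and a feedback inhibitor of cytokine signaling, was at 29.1 and 28.6 against 9.27 and 6.80 FPKM. Its ratio of 0.279 was lower than that of any of the 10 genes.

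The genes with the most similar pattern were sought among the other genes with a mean of at least 5 FPKM (9174 for *Bmpr2*, 9173 for each of the rest), by the root mean square difference of centred log2(FPKM + 1) over the 4 libraries. For *Id1* they were *Arpin*, *Smim8* and *E130114P18Rik*, for *Id2* *Dcxr*, *Cotl1* and *Olfm4*, and for *Id3* *Mettl7a1*, *Car14* and *Dnaja4*. For *Id4* they were *Jun*, *Cyb5d2* and *Rin2*, and for *Bambi* *Immp2l*, *Fxyd2* and *Prss56*. The closest differed by 0.022 for *Id1*, 0.026 for *Id2*, 0.019 for *Id3*, 0.026 for *Id4* and 0.036 for *Bambi*. With 4 libraries many genes come this close, since 19 lay within 0.05 of *Id1* and 143 of *Smad1*, but only 2 of *Bambi*. The receptors and Smads had *Mipep*, *Grb14* and *Cyp20a1* for *Bmpr1a*, *Plekhm3*, *Pan3* and *Dalrd3* for *Bmpr1b*, *Trim35*, *Lztr1* and *Cnot10* for *Bmpr2*, *Ehmt2*, *Psmd3* and *Rnf170* for *Smad1*, and *Frmd5*, *Nek8* and *Dgcr2* for *Smad5*.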

How the data were processed

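RNA from mTFP-positive cells was sequenced in 4 libraries, 1 per mouse. Single-end reads were aligned to mm10 by the authors, who deposited each gene's FPKM for each library. Per the labels the tools were TopHat2 2.1.1, Bowtie2 2.2.8, SAMtools 0.1.18 and Cuffdiff 2.2.1, whereas the study's methods name other versions of TopHat, Bowtie2 and SAMtools, and Cufflinks for the FPKM. The sources also differ on RNA isolation, a TRIzol reagent in the methods and a spin-column kit in the labels. The strand setting was not given in the sources used here. FPKM are relative to each library's mapped reads, so abundant genes shift the others.

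FPKM were used as deposited, with 1 added before taking log2, which understates the change of low genes. Genes with a mean of at least 1 FPKM entered a linear model in limma 3.58.1 (R 4.3.3), with moderated variances and a trend, and Benjamini-Hochberg adjustment over all 12363. Single values were compared with two-sided exact permutation tests in scipy 1.17.1. These steps were tested on simulated data. With 2 mice per group, p-values rest on the spread between these mice alone. No count test was run.

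Depth was estimated from genes with 1 annotated transcript in GENCODE M21 of at least 600 bases, taking off a fragment of 200 bases. Between 79.0% and 83.5% of their values lay within 0.15 of a whole number of reads, so read numbers are approximate, and a counting error from them leaves out amplification. Motifs were searched in 250 bases before each RefSeq start in GRCm38.p6.

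The 10 genes and the lists were chosen with earlier results of these data known. From the lists, those named were the 3 largest differences in each direction without overlap, the most abundant gene of each, and a fixed set of ligands, receptors, Smads and E-protein genes. *Hes5*, *Neurog2*, *Sostdc1*, *Rgmb*, *Bmp1*, *Tll1*, *Tll2*, the endothelial, astrocyte and pigment epithelium markers, *A330033J07Rik* and *Bambi-ps1* were named after their values were seen where this rule does not include them. Alternatives were pseudocount 0.1, no filter, a minimum of 5 FPKM, quantile normalization, equal medians, no trend, the exclusion of each mouse in turn, and a block by run. The rule of the study and its fold rule alone were also applied.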

Additional observations from a re-analysis of the deposited data

How the results depend on the processing

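None of the 10 genes passed the adjusted test under any alternative run, the lowest adjusted limma p being 0.0776 for *Bambi* with the block by run. The labels number no replicates, so the block rests on the runs of mouse numbers alone. With the block, 24 genes were higher and 47 lower at adjusted p, and 842 and 1096 at unadjusted p. Among the latter were 5 of the 10 genes, lower, and 2 pathway genes each way. The 5 were *Bambi*, *Id1*, *Id2*, *Id3* and *Bmpr1a*, at unadjusted limma p of 0.0011, 0.0029, 0.0028, 0.018 and 0.029.

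Without a filter, adjusted p called 0 in each direction and unadjusted p 254 higher and 370 lower, with 2 of the 10 and 1 pathway gene lower. With a minimum of 5 FPKM adjusted p called 0 in each direction and the median of Id partners was -0.30. Quantile normalization called 2 higher and 2 lower and put *Bmpr2* at -0.026. It left 2 of the 10 lower without overlap, as *Id2* and *Id3* overlapped. Under it 14.46% of all genes were lower without overlap and 16.05% higher. Equal medians called 3 higher and 3 lower and put *Bmpr2* at -0.0098. Of unadjusted calls, 55.9% were lower as deposited, 46.6% after quantile normalization and 1.575% after centring on Müller glial markers.

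That centring called 3 genes higher and 3 lower at adjusted p, and 875 higher and 14 lower at unadjusted p, with 0 of the 10 and 2 pathway genes, higher. Then 0 of the 10 were lower without overlap and 4 were higher, *Bmpr1b*, *Bmpr2*, *Smad1* and *Smad5*, against 1.29% of all genes lower and 41.5% higher. The medians were 0.0072 for the 10, 0.15 for Id partners and 0.43 for the TGF-β branch. The sign turned for *Id4* (0.047), *Bmpr1b* (0.35), *Neurog2* (0.0076), *Bmp3* (0.19), *Neo1* (0.36), *Tob1* (0.33), *Nbl1* (0.12), *Smad6* (0.084), *Acvr2b* (0.37), *Tcf3* (0.15) and *Tcf12* (0.21). The fold and p rule of the study, as applied here to the 17865 genes above 0 FPKM with no level filter, picked 96 higher and 182 lower, and a 2-fold ratio alone 1362 and 1938, of which 104 and 126 were among the 12363 genes tested, with 0 of the 10.

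Leaving out each mouse gave 7 to 14 genes higher and 5 to 12 lower at adjusted p, and 58 to 306 and 71 to 273 at unadjusted p, with 0 to 1 of the 10 lower and 0 to 1 pathway genes each way. *Bambi* kept p under 0.05 only without mouse 7983. The 10 had 4 to 8 lower (8 without mouse 3911) and 0 to 3 higher (3 without mouse 7984, 2 without mouse 7983) without overlap, where between 29.1% and 35.3% of all genes were lower and between 29.7% and 35.04% higher. Their median ran from -0.47 to -0.073, with -0.073 without mouse 7984 and -0.10 without mouse 3914. The median of Id partners ran from -0.43 to -0.18. *Id1* stayed between -0.54 and -0.44, *Id2* between -0.60 and -0.42, *Id3* between -0.50 and -0.33 and *Bambi* between -0.995 and -0.48. Of the values that kept their sign, those that moved by over 1.5 times were *Bambi*, *Bmpr1a* (-0.70 to -0.12), *Smad1* (0.00094 to 0.12), *Smad3* (0.10 to 0.81), *Hamp* (0.33 to 1.41), *Hes1* (-0.70 to -0.33), *Hes5* (-0.73 to -0.20), *Tcf12* (-0.23 to -0.096) and *Tcf3* (-0.45 to -0.00026). The median of the TGF-β branch ran from -0.057 to 0.18. The sign turned for *Id4* (-0.70 to 0.039), *Bmpr1b* (-0.43 to 0.38), *Bmpr2* (-0.093 to 0.12), *Smad5* (-0.27 to 0.62), *Bmp3* (-0.63 to 0.26), *Neo1* (-0.45 to 0.42), *Tob1* (-0.26 to 0.17), *Nbl1* (-0.69 to 0.17), *Tbx2* (-0.77 to 0.94), *Tgfb2* (-0.095 to 0.20), *Smad4* (-1.21 to 1.32), *Smad6* (-0.78 to 0.19), *Acvr1* (-0.18 to 0.59), *Acvr2a* (-0.073 to 0.24), *Acvr2b* (-0.42 to 0.40), *Tcf4* (-0.13 to 0.22) and *Smurf1* (-0.43 to 0.72). *Id4* turned without mouse 7984 or mouse 3914. With 2 mice per group, leaving out 1 assumes that the lone mouse varies like the other group. The causes of these changes were not tested.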
